A study of Mus musculus with 16 samples.

Results

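The cubilin endocytic receptor complex was followed as 4 genes, Cubn, Amn, Lrp2 and Dab2, of the 55291 genes in the deposited expression table. They were taken by symbol, and all 4 were found. Cubn was chosen by its normalised counts, which rose more without LIF in the mutant lines than in the wild-type line, so its values in those comparisons are given as a description without a test. The other 3 genes were taken as its known partners.

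RNA came from mouse embryonic stem cells of the E14Tg2a line (strain 129/Ola), grown without feeders in serum medium. Their endogenous CTCF, the zinc finger factor at which chromatin loops are anchored, carries a degron, through which an auxin triggers its destruction. A doxycycline-inducible transgene supplies CTCF with the change R342C, K365T or Q418R, or wild-type CTCF (WT). WT cultures were treated like the mutant ones: indole-3-acetic acid at 500 µM served as the auxin, doxycycline was given at 1 µg/ml, and both lasted 2 days. Cells labelled no LIF had spent 3 days without leukemia inhibitory factor (LIF), CHIR99021 and PD0325901, so the removal of the cytokine cannot be told apart from that of the GSK3 and MEK inhibitors. Cells labelled LIF had all 3 additions, which hold them in the naive pluripotent state. There were 8 groups, 4 lines in 2 media, with 2 libraries in each. Each genotype is represented by 1 line as labelled, so that genotype and line cannot be told apart. The labels do not say that the replicates came from separate cultures, and p-values then measure only the spread between these libraries.

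Cubilin is a very large extracellular receptor without a membrane-spanning segment. Amnionless, the product of Amn, anchors it in the membrane and carries it to the cell surface, and the pair is known as the cubam receptor for vitamin B12 bound to intrinsic factor. Megalin, the product of Lrp2, is a giant receptor of the LDL receptor family that works with cubam to take up albumin, vitamin carriers and other proteins. Dab2 is a cytoplasmic adaptor that links the tail of megalin and the tail of amnionless to clathrin. The complex is best known from the kidney proximal tubule, the ileum and the visceral endoderm of the early mouse embryo, the epithelium through which the embryo is nourished before it has a placenta.

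Cubn lies on chromosome 2 of GRCm38 (mm10), from 13276338 to 13491813 on the minus strand, and Lrp2 lies on the same chromosome and strand, from 69424340 to 69586065. Amn spans 111271095 to 111276426 on the plus strand of chromosome 12, and Dab2 spans 6299788 to 6440712 on the plus strand of chromosome 15. The promoters of Cubn and Lrp2 are shown because Cubn had the largest response to the medium in the mutant lines and Lrp2 the highest level among the members. Both windows run 5′ to 3′ on the minus strand from 250 bases before to 50 bases after the start given by RefSeq for GRCm38.p6, at chr2:13491827-13492126 for Cubn and chr2:69585980-69586279 for Lrp2. Capitals mark CCCTC, the repeat that gave CTCF its name, and the TCF/LEF letters CTTTGAA or CTTTGAT, in either strand.
Cubn: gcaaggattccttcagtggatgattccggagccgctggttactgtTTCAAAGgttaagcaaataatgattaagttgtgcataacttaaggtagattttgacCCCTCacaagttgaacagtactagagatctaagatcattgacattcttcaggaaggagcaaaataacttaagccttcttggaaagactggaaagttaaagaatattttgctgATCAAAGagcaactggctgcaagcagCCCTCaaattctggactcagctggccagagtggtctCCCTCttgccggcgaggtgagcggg
Lrp2: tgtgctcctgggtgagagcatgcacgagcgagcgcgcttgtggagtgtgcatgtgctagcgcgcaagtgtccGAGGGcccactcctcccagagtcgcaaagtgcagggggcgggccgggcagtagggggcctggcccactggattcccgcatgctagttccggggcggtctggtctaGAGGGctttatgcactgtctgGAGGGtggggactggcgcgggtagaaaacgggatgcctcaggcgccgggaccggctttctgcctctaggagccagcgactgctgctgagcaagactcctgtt
These windows differ in base composition. The Cubn window was 44.33% GC with 5 CpG dinucleotides, against a median of 52.67% GC and 7 CpG over 32851 promoter windows of the same length, while the Lrp2 window was 65% GC with 20 CpG. CCCTC occurred 3 times in each window, and 65.95% of all windows held at least 1 match. The Cubn window held 2 TCF/LEF matches, of a kind found in 8.651% of all windows, and the Lrp2 window held none. The GC box GGGCGG occurred 2 times in the Lrp2 window and not in that of Cubn, and 35.66% of all windows had it. Neither window held the GATA letters AGATAA or TGATAA or the TATA box TATAAA, which 18.61% and 13.62% of all windows contained. No match overlapped another, and both strands were searched. A match is a string of letters and was not tested as a site.

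The libraries held 19721363 to 31935381 recovered reads. The second WT library without LIF stood apart in its share of structural RNAs (small nuclear, small nucleolar, ribosomal and similar genes), which was 5.02% of its normalised counts, against 1.97% to 3.88% in the other 15 libraries. Differences of the members from WT without LIF are given with and without it below. Ctcf RNA, from the transgene and the endogenous gene together, ranged over 5589 to 8585 normalised counts in the mutant libraries and 5292 to 6956 in the WT libraries, which says nothing about the protein that the degron removes. Of 12 naive pluripotency genes, 12 fell without LIF in each of the 4 lines (median -3.33 in WT), and of 12 formative and primed genes 12 rose in R342C, K365T and WT and 11 rose in Q418R (median 3.30 in WT). The fall was not even, since the summed naive level without LIF was 31218 in the first K365T library, 12145 in the second, and 11509 and 14551 in WT. That first K365T library also had the lowest Lrp2 and Dab2 without LIF and the lowest Cubn of the mutant libraries there. A link between these was not tested.

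Cubn, the receptor itself, was close to silent with LIF and present in all 4 lines without it, at a level that differed between the mutant lines and WT. Without LIF it had 475 and 800 normalised counts in the R342C libraries, 146 and 339 in K365T, 1007 and 384 in Q418R, and 33.5 and 57.2 in WT. Every mutant library lay above both WT libraries, the lowest being the first of K365T. Taken line by line and in either direction, a lack of overlap with WT was seen in 29.8% of all tested genes for R342C, 49.9% for K365T and 48.9% for Q418R. The share of genes with all mutant libraries above WT was not counted. With LIF Cubn had 2.36 and 0.931 normalised counts in R342C, 3.32 and 1.03 in K365T, 2.38 and 2.99 in Q418R, and 4.67 and 2.16 in WT. The LIF libraries overlapped between each mutant line and WT, and rested on 1 to 6 recovered reads each.

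Because these low counts compress log2 differences, the change of Cubn is also given as a ratio of read rates, with a 95% exact binomial interval that covers counting error only. Without LIF over LIF this ratio was 364 (142 to 1338) in R342C, from 1306 and 4 reads. It was 112 (43.5 to 413) in K365T and 252 (108 to 778) in Q418R. In WT it was 12.3 (5.96 to 29.3), from 86 and 8 reads. The WT ratio was 9.25 (4.22 to 23.1), from 35 and 8 reads, without the second WT library lacking LIF. Cubn RNA was therefore higher without LIF in WT too, and the larger ratios of the mutant lines are what Cubn was chosen by.

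On the log2(normalised count + 4) scale the fitted no LIF minus LIF difference of Cubn was 6.79 in R342C, 5.23 in K365T, 6.55 in Q418R and 2.71 in WT, each with a standard error of 0.49. The difference of these differences from that of WT was 4.08 for R342C, 2.51 for K365T and 3.84 for Q418R (SE 0.69 each). This is the contrast on which Cubn was chosen, and no p-value is given for it. Without the second WT library lacking LIF, these values were 4.43, 2.87 and 4.19 in the same order of lines. Against WT without LIF the log2 difference was 3.70 in R342C, 2.24 in K365T and 3.71 in Q418R, and without that library 4.05, 2.6 and 4.06. Set against WT without LIF, the ratio of read rates was 14.0 (11.2 to 17.6) in R342C, 5.37 (4.26 to 6.85) in K365T and 15.4 (12.4 to 19.4) in Q418R. Without that library these ratios were 18.5 (13.3 to 26.7), 7.13 (5.05 to 10.4) and 20.4 (14.6 to 29.4) in the same order.

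**Figure D1:**
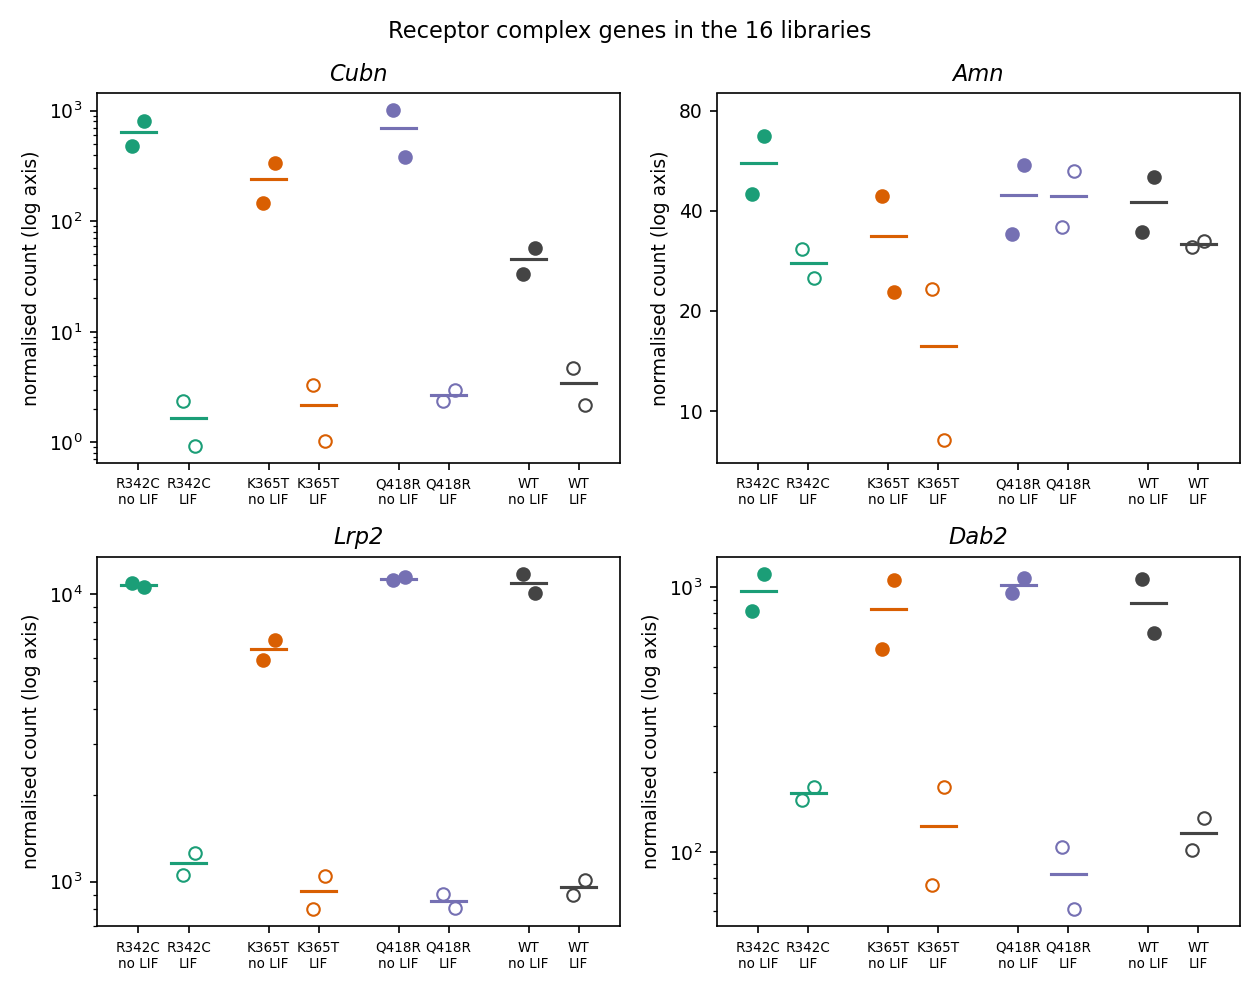
Normalised counts (log axis) of Cubn, Amn, Lrp2 and Dab2 in each library, with filled points for no LIF, open points for LIF and bars for the mean of 2 libraries. Cubn without LIF lies at 146 to 1007 in the mutant libraries and at 33.5 and 57.2 in WT, while the other 3 genes show no such gap between the mutant lines and WT, apart from the lower Lrp2 in K365T.

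Among the mutant lines K365T had the lowest Cubn without LIF, a step that did not pass the test. It had a mean of 242 ± 136 normalised counts without LIF, against 638 ± 230 in R342C and 695 ± 440 in Q418R (SD, n = 2 each). Neither K365T library reached the lowest library of R342C or of Q418R. The share of all genes with such a gap between mutant lines was not counted. Against WT without LIF a lack of overlap was common, at 29.8% to 49.9% of all genes. The choice of Cubn used the mutant lines against WT and not the differences among them, so these were tested. The same mutant libraries entered that choice, so the test is not wholly free of it. The moderated F test of limma over the 3 mutant lines gave F = 6.0 and an adjusted p of 0.0908, in a test that called 9.15% of all genes. The pairwise log2 differences were -1.45 ± 0.49 for K365T against R342C (SE; limma adjusted p = 0.0794) and -1.46 ± 0.49 for K365T against Q418R (adjusted p = 0.114), in contrasts that called 8.8% and 3.37% of all genes. Between Q418R and R342C the difference was 0.01, with a 95% interval of -1.03 to 1.05, and 2.05% of all genes were called. None of these passed the threshold of 0.05, though the F test did with DESeq2 on the recovered reads (adjusted p = 0.0349), and over all settings its adjusted p ranged over 0.0349 to 0.483. The libraries of Q418R, at 1007 and 384, themselves lay far apart.

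Amn, whose product anchors cubilin in the membrane, did not pass the test in any line or medium. Without LIF it had 44.8 and 66.9 normalised counts in R342C, 44.3 and 22.8 in K365T, 34.1 and 55.0 in Q418R, and 34.5 and 50.5 in WT. With LIF it had 30.7 and 25.1 in R342C, 23.2 and 8.21 in K365T, 35.7 and 52.8 in Q418R, and 31.2 and 32.4 in WT. The media overlapped in K365T and Q418R and did not overlap in R342C and WT, and Amn rested on 8 to 63 recovered reads per library.

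The fitted no LIF minus LIF difference of Amn was 0.89 in R342C (limma adjusted p = 0.0984), 0.98 in K365T (adjusted p = 0.0720), -0.00 in Q418R (adjusted p = 0.996) and 0.36 in WT (adjusted p = 0.511), each with a standard error of 0.42. The 95% interval in WT was -0.54 to 1.25, so a doubling could not be told from no change at this depth. Other settings brought single values past the threshold. In K365T the difference was 1.17 with TPM values (limma adjusted p = 0.0411), and in R342C the adjusted p was 0.0418 when only the libraries compared were fitted. The value in K365T also rested on single libraries, since without its second no LIF library the adjusted p was 0.0337 and without its first LIF library 0.0162. Amn did not pass against WT either: without LIF its difference from WT was 0.36 for R342C, -0.35 for K365T and 0.05 for Q418R (limma adjusted p = 0.969, 0.630 and 0.961). These values were 0.61, -0.097 and 0.30 without the second WT library, and none passed (adjusted p = 1, 0.947 and 0.883). The 3 mutant lines differed most in Amn with LIF, where the log2 difference of K365T from Q418R was -1.38 (limma adjusted p = 0.0685) and the F test gave an adjusted p of 0.0987, without passing.

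Lrp2, which encodes megalin, rose without LIF in all 4 lines and was by far the most abundant member per length. Without LIF it had 10926 and 10606 normalised counts in R342C, 5907 and 6948 in K365T, 11209 and 11486 in Q418R, and 11791 and 10129 in WT. With LIF it had 1053 and 1260 in R342C, 800.3 and 1047 in K365T, 907 and 809 in Q418R, and 898 and 1010 in WT. Each no LIF library was above every LIF library, and K365T stood below the other lines without LIF only.

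The fitted difference of Lrp2 was 3.22 in R342C, 2.80 in K365T, 3.72 in Q418R and 3.51 in WT, each with a standard error of 0.14 (limma adjusted p = 9.27e-10, 4.01e-09, 4.38e-10 and 3.72e-10). Without LIF it was lower in K365T than in WT, with a log2 difference of -0.77 ± 0.14 (SE, limma adjusted p = 0.00389) and a ratio of means of 0.586. Without the second WT library the difference was -0.88 (adjusted p = 0.0128). Of all genes, 7.33% were called lower in that comparison. R342C and Q418R differed from WT by -0.02 and 0.05, with 95% intervals of -0.33 to 0.29 and -0.25 to 0.36, and without the second WT library by -0.13 and -0.055. Among the 3 mutant lines the F test gave F = 20.2 and a limma adjusted p of 0.00546, and the log2 difference was -0.75 for K365T against R342C (adjusted p = 0.00680) and -0.82 for K365T against Q418R (adjusted p = 0.00810).

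The lower Lrp2 of K365T did not pass the test under every setting. With TPM values its difference from WT was -0.60 (limma adjusted p = 0.0914), on a scale where the median of all genes moved by 0.15. With only the 4 libraries compared the limma adjusted p was 0.174. That fit called 0 of all tested genes in this comparison, so it says nothing about Lrp2 in particular. In LIF the same lines differed by -0.06, and the difference in response was -0.71 ± 0.20 (SE, limma adjusted p = 0.142; unadjusted p = 0.00335). DESeq2 on the recovered reads gave -0.72 with an adjusted p of 0.0479 for that difference.

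Dab2, the clathrin adaptor, also rose in every line without LIF, and no mutant line passed the test against WT. It had 818 and 1126 normalised counts without LIF in R342C, 585 and 1066 in K365T, 955 and 1085 in Q418R, and 1074 and 675 in WT. With LIF it had 157 and 176 in R342C, 75.2 and 176 in K365T, 105 and 60.7 in Q418R, and 102 and 134 in WT. Every no LIF library was above every LIF library, and the 2 libraries of K365T and of WT differed widely from each other without LIF.

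The fitted difference of Dab2 was 2.50 in R342C, 2.73 in K365T, 3.61 in Q418R and 2.82 in WT, each with a standard error of 0.38 (limma adjusted p = 8.11e-05, 4.13e-05, 2.61e-06 and 2.63e-05). Against WT without LIF it differed by 0.17 in R342C, -0.11 in K365T and 0.26 in Q418R (limma adjusted p = 0.982, 0.888 and 0.732). The 95% interval for Q418R was -0.56 to 1.07, which still holds a doubling. The differences were -0.16, -0.44 and -0.077 without the second WT library, so that the sign in R342C and Q418R rested on it, and none passed (adjusted p = 1, 0.643 and 0.974).

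**Figure D2:**
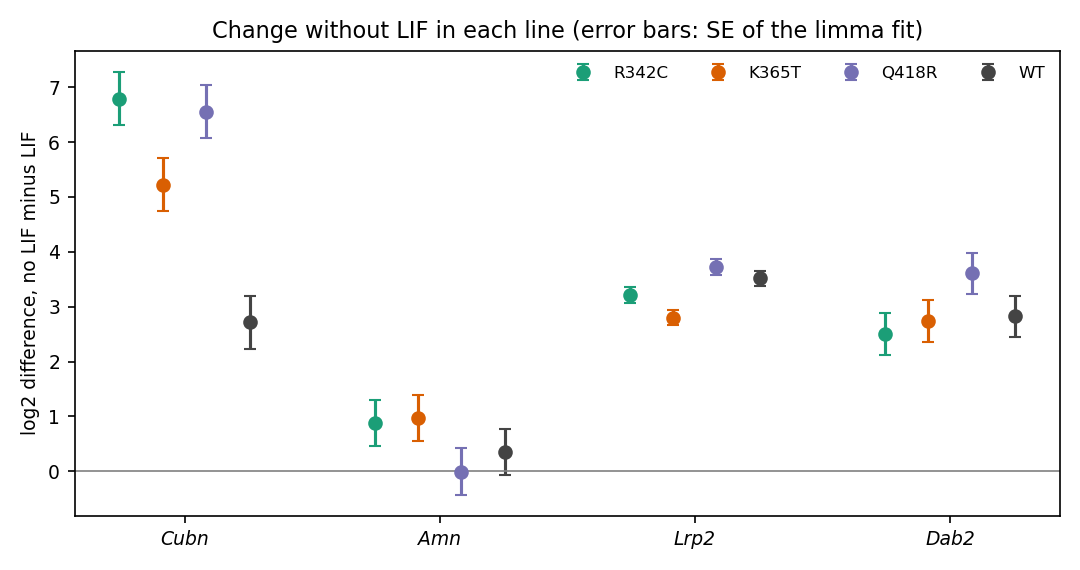
Log2 difference, no LIF minus LIF, of each gene in each line on the log2(normalised count + 4) scale, with the standard error of the limma fit as bars. The values are 2.80 to 3.72 for Lrp2, with K365T lowest, and 2.50 to 3.61 for Dab2, while Cubn lies at 5.23 to 6.79 in the mutant lines and at 2.71 in WT.

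Counted over Amn, Lrp2 and Dab2 in the 4 lines, 8 of 12 differences between media passed the test, all higher without LIF. The background was high, since 47.2% of the 17757 tested genes passed in R342C, 44.7% in K365T, 46.5% in Q418R and 48.8% in WT. Called higher were 23.3%, 21.6%, 23% and 23.8% in the same order of lines. The media did not overlap for Cubn, Lrp2 and Dab2 in any line and for Amn in R342C and WT, a pattern shown by 75.8%, 68.6%, 74.2% and 73.9% of all genes in R342C, K365T, Q418R and WT. Against WT without LIF, 1 of 9 values passed, Lrp2 in K365T, where 14.7% of all genes passed, against 0.479% in R342C and 6.15% in Q418R. Against WT with LIF, 0 of 9 passed by limma, edgeR and DESeq2, and 1 had an unadjusted p under 0.05, Amn in K365T at -0.97, where 11.1% of all genes passed, against 0.417% in R342C and 4.25% in Q418R. Unadjusted, 4532 of all 17757 genes were under 0.05 in K365T there, 1005 in R342C and 3093 in Q418R. For the difference in response, 0 of 9 passed by limma and edgeR and 1 by DESeq2, and 1 had an unadjusted p under 0.05, Lrp2 in K365T in both cases, with 0.659% of all genes passing by limma in K365T, 0.141% in Q418R and 0% in R342C. DESeq2 called 442, 162 and 2 of all genes in that order of lines, and 2082, 1493 and 288 had an unadjusted p under 0.05. Among the 3 mutant lines, 1 of 8 F tests passed, for Lrp2 without LIF, with 9.15% of all genes passing without LIF and 11% with LIF.

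Levels of different genes can be compared only per length, and the deposited TPM values allow this. Without LIF Lrp2 stood at 44.4 to 95.5 TPM over the 8 libraries, Dab2 at 9.93 to 20.8, Amn at 1.78 to 4.73 and Cubn at 0.295 to 9.04. Lrp2 lay above Dab2, and Dab2 above Amn, with no overlap, whereas Cubn and Amn overlapped. Cubn RNA averaged 5.67 ± 1.87 TPM in R342C, 2.24 ± 1.43 in K365T, 6.30 ± 3.87 in Q418R and 0.355 ± 0.0841 in WT (SD, n = 2 each). Its ratio to Amn, the partner of cubilin within cubam, was 1.31 and 1.48 in R342C, 0.408 and 1.83 in K365T, 3.65 and 0.862 in Q418R, and 0.120 and 0.140 in WT. In TPM Cubn was thus below Amn in both WT libraries and in 1 library each of K365T and Q418R. As a share of Lrp2 TPM, Cubn made up 2.77% to 10.05% in the mutant libraries and 0.318% and 0.631% in WT. With LIF Cubn was at 0.008 to 0.037 TPM in all 8 libraries, against 0.593 to 3.56 for Amn.

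**Figure D3:**
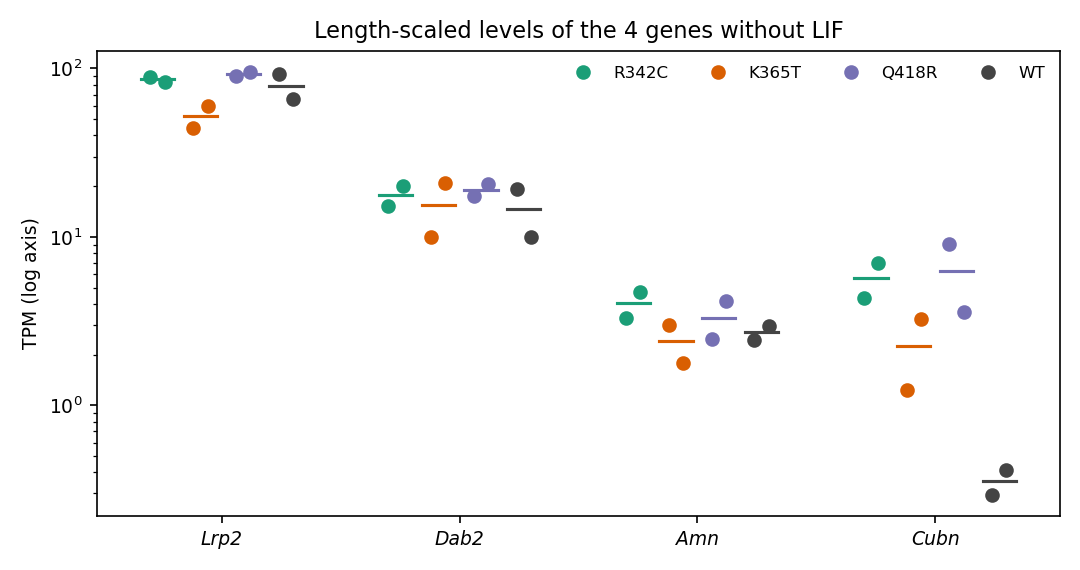
TPM (log axis) of the 4 genes in each library without LIF, with bars for the mean of 2 libraries. Lrp2 at 44.4 to 95.5 TPM stands above Dab2 at 9.93 to 20.8, and Cubn overlaps Amn in the mutant libraries but lies below it in WT, at 0.295 and 0.414.

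Across the 16 libraries Cubn correlated with Lrp2 at r = 0.905 and with Dab2 at r = 0.891, and with Amn at r = 0.484. These libraries fall into the 2 media, in which Cubn, Lrp2 and Dab2 do not overlap. Over the 8 libraries without LIF the same correlations were 0.081 for Lrp2, 0.345 for Dab2 and 0.117 for Amn. The genes most like Cubn over the 16 libraries, of 11114 with a mean of at least 100, were Acsl4 (r = 0.968), Map2 (0.962), Tmx4 (0.952), Nhs (0.950) and Hs6st2 (0.947). Acsl4, Nhs and Hs6st2 lie on the X chromosome, and 305 genes reached an r of 0.9. Over the 8 libraries without LIF the most alike were Crim1 (0.973), Fndc3a (0.971), Metap1 (0.970), Fbxo11 (0.967) and Memo1 (0.955), and 32 genes reached 0.9. Crim1, Fbxo11 and Memo1 all lie on chromosome 17, and the points share their lines and libraries. Only the genes named here were placed on chromosomes, and the share of the 11114 compared genes on the X or on chromosome 17 was not counted.

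Crim1, Fbxo11 and Memo1 were picked on the no LIF libraries, where Cubn splits the mutant lines from WT, so their values there are a description. Memo1 had 910 to 1304 normalised counts in the mutant libraries and 550 and 611 in WT without LIF, and 690 to 841 in the mutant libraries and 343 and 379 in WT with LIF. Fbxo11, a ubiquitin ligase subunit, had 1515 to 2309 in the mutant libraries and 964 and 1055 in WT without LIF, and 2751 to 3879 in the mutant libraries and 1485 and 1592 in WT with LIF. Crim1 had 388 to 660 in the mutant libraries and 258 and 281 in WT without LIF, and 290 to 452 in the mutant libraries and 146 and 246 in WT with LIF. In each gene the mutant libraries lay above WT in both media. The share of all genes with such a gap with LIF, or in both media, was not counted. The LIF libraries took no part in the choice, but they come from the same lines, so a fixed difference between lines would recur in them. Against WT with LIF, 0.417% of all genes were called in R342C, 11.1% in K365T and 4.25% in Q418R. Beside these shares Memo1 passed as higher than WT with LIF in R342C, K365T and Q418R (log2 differences 1.05, 1.064 and 1.14), as did Fbxo11 (1.13, 1.01 and 1.29). Crim1 passed with LIF in R342C at 1.15 (limma adjusted p = 0.0187) and Q418R at 0.80 (adjusted p = 0.0416), with 0.64 in K365T (adjusted p = 0.0601). Fbxo11 fell without LIF in each line, while Memo1 rose in R342C, Q418R and WT and Crim1 in Q418R. For Cubn the lines overlapped with LIF, where 4, 4 and 5 reads were counted over the 2 libraries of R342C, K365T and Q418R and 8 in WT.

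The genes beside the members were examined as neighbours, those starting within 200 kb of a member's start. Beside Cubn lie Trdmt1, which encodes an RNA methyltransferase, and Vim, which encodes vimentin, an intermediate filament protein. Trdmt1 had 156 to 222 normalised counts in the mutant libraries without LIF and 136 and 153 in WT, with fitted differences of 0.14 in R342C, 0.37 in K365T and 0.29 in Q418R (limma adjusted p = 0.98, 0.272 and 0.456). Vim had 1019 to 1495 in the mutant libraries and 826 and 1077 in WT, with differences of 0.47, 0.23 and 0.65 in the same order (adjusted p = 0.886, 0.537 and 0.103), and it fell without LIF in each line. Neither neighbour passed the test, and their differences from WT were each under 0.7 on the log2 scale. They were 0.053, 0.29 and 0.20 for Trdmt1 and 0.28, 0.044 and 0.46 for Vim without the second WT library.

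Over the 10 tested neighbours of Cubn, Lrp2 and Amn, 0 of 30 values against WT without LIF passed by limma, edgeR and DESeq2, beside 0.479%, 14.7% and 6.15% of all genes called by limma in R342C, K365T and Q418R. Of the 30 values 1 had an unadjusted p under 0.05, beside 1006, 5250 and 4099 of all 17757 genes in the same order. With LIF 1 of 30 passed, Tnfaip2 beside Amn in K365T at -1.38 (limma adjusted p = 0.0338), beside 0.417%, 11.1% and 4.25% of all genes. Dab2 had no tested neighbour within that distance. Gm13270, a transcript on the strand opposite to Cubn that overlaps 3557 bases of its exons, had 2.12 to 17.1 normalised counts in the mutant libraries without LIF and 6.70 and 19.1 in WT. The library kit marks strand, but whether counting used it is not given in the sources used here, so reads of the pair could be mixed. The level of Gm13270 was below that of Cubn in every library without LIF. With LIF Gm13270 had 0.996 to 6.29 in the mutant libraries and 3.115 and 4.32 in WT. Cubn had 0.931 to 3.32 and 2.16 and 4.67 there, so the levels overlapped and mixed reads would matter most with LIF.

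**Figure D4:**
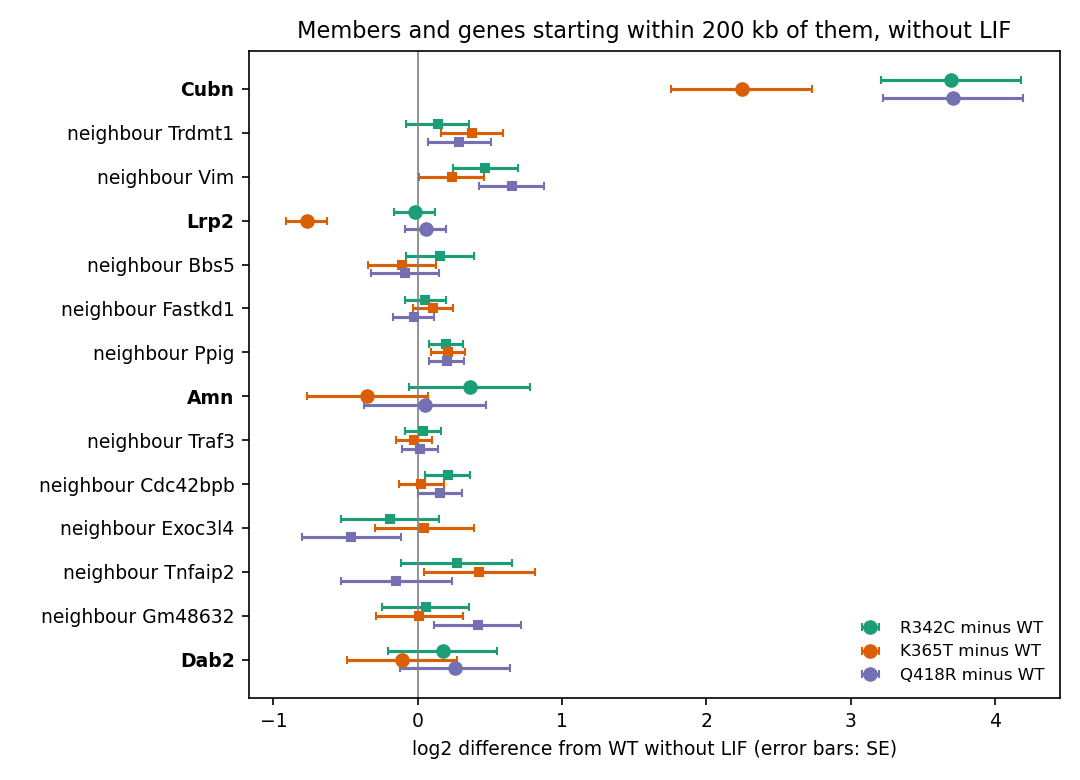
Log2 difference of each mutant line from WT without LIF for the 4 members (circles, bold names) and their neighbours (squares), with standard errors. Cubn lies at 2.24 to 3.71, Lrp2 at -0.77 in K365T, and the neighbours between -0.46 (Exoc3l4 in Q418R) and 0.65 (Vim in Q418R).

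Since the complex is a hallmark of visceral endoderm, the markers of that tissue were read beside Cubn. Gata6, a transcription factor of primitive endoderm, had 71.5, 88.1, 151, 88.9, 140 and 101 normalised counts in the 6 mutant libraries without LIF, against 23.9 and 32.5 in WT. Its difference from WT was 1.38 ± 0.35 in R342C (SE, limma adjusted p = 0.187), 1.91 ± 0.35 in K365T (adjusted p = 0.00355) and 1.94 ± 0.35 in Q418R (adjusted p = 0.00564). Every mutant library lay above both of WT, as for Cubn. By fitted difference from WT, K365T was the lowest of the 3 for Cubn and R342C for Gata6. The step among mutant lines did not pass the test for Cubn and was not tested for Gata6, so the 2 orders cannot be compared. Line by line and in either direction, a lack of overlap was seen in 29.8% of all genes for R342C, 49.9% for K365T and 48.9% for Q418R. The share with all mutant libraries above WT was not counted, which holds for Sox17 below as well. For Gata6 the gap was not seen with LIF, with 45.8 to 109 in the mutant libraries and 57.6 and 71.3 in WT. Gata6 still passed in K365T (adjusted p = 0.0156) and Q418R (adjusted p = 0.0301) without the second WT library. Without LIF Gata6 fell in WT by 1.09 on the log2 scale (limma adjusted p = 0.018) and rose in Q418R by 0.97 (adjusted p = 0.0343), with 0.16 and 0.42 in R342C and K365T, which did not pass, whereas Cubn was higher without LIF in WT. The differences of these responses from that of WT were 1.25, 1.51 and 2.06 in R342C, K365T and Q418R, and none passed (adjusted p = 1, 0.205 and 0.154).

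Sox17, another endoderm factor, had 15.8 to 39.7 normalised counts in the mutant libraries without LIF, against 6.70 and 11.2 in WT. It passed the test in Q418R at 1.66 (limma adjusted p = 0.0129), and its values were 0.97 in K365T (adjusted p = 0.0766) and 1.18 in R342C (adjusted p = 0.355). Without the second WT library Sox17 still passed in Q418R (adjusted p = 0.0451). With LIF the groups overlapped, with 12.9 to 32.1 in the mutant libraries and 16.4 and 20.53 in WT. As for Cubn and Gata6, the mutant libraries lay above WT without LIF and overlapped it with LIF.

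Gata4, Foxa2, Afp and Ttr did not separate the mutant libraries from WT as Cubn did. Gata4, the partner of GATA6 in endoderm, had 326 to 413 normalised counts in the mutant libraries without LIF and 330 and 393 in WT, with differences of 0.01, -0.01 and 0.03 in R342C, K365T and Q418R. Foxa2 had 2.28 to 31.9 in the mutant libraries and 13.4 and 22.4 in WT, and it passed in no mutant line. Afp and Ttr, secreted proteins that define mature visceral endoderm, were at 0 to 1.10 and 0 to 4.56 normalised counts in the mutant libraries without LIF, against 0 and 0.957 for Afp and 0 in both WT libraries for Ttr. Ttr was likewise at 0 to 4.72 in the mutant libraries with LIF, against 1.56 and 3.24 in WT. The summed level of the 24 visceral and primitive endoderm genes was 13225 to 22437 in the mutant libraries without LIF and 20527 to 22875 in WT, and 13788 to 20942 and 18174 to 19251 with LIF. Without LIF most of this sum came from Nid2 in WT and K365T (means of 17625 and 10805), so it says little about the other genes. Of the 17 that could be tested, 0 passed in R342C by limma and edgeR, beside 0.479% of all genes by limma and 78 of 17757 by edgeR. DESeq2 called 1 of the 17, beside 141 of all genes, and 4 had an unadjusted p under 0.05, beside 1006 of all genes. In K365T 4 of the 17 passed, beside 14.7% of all genes, among them Gata6 and Rbp4, which rose, and Nid2, which fell. In Q418R 4 of the 17 passed, beside 6.15% of all genes, among them Gata6, Sox17 and Pdgfra, which rose. Rbp4, Nid2 and Pdgfra are named because they passed, after their values were seen. Over the 17 genes the median difference from WT was 0.39 in R342C, 0.27 in K365T and 0.40 in Q418R, against 0.007, -0.012 and 0.003 over all genes. Without the second WT library 1 of the 17 passed in K365T, beside 4.87% of all genes, and 2 in Q418R, beside 1.4%. The part of endoderm-like cells in the level of Cubn was not tested, and in RNA from whole cultures more cells of a type and more RNA per cell cannot be told apart.

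**Figure D5:**
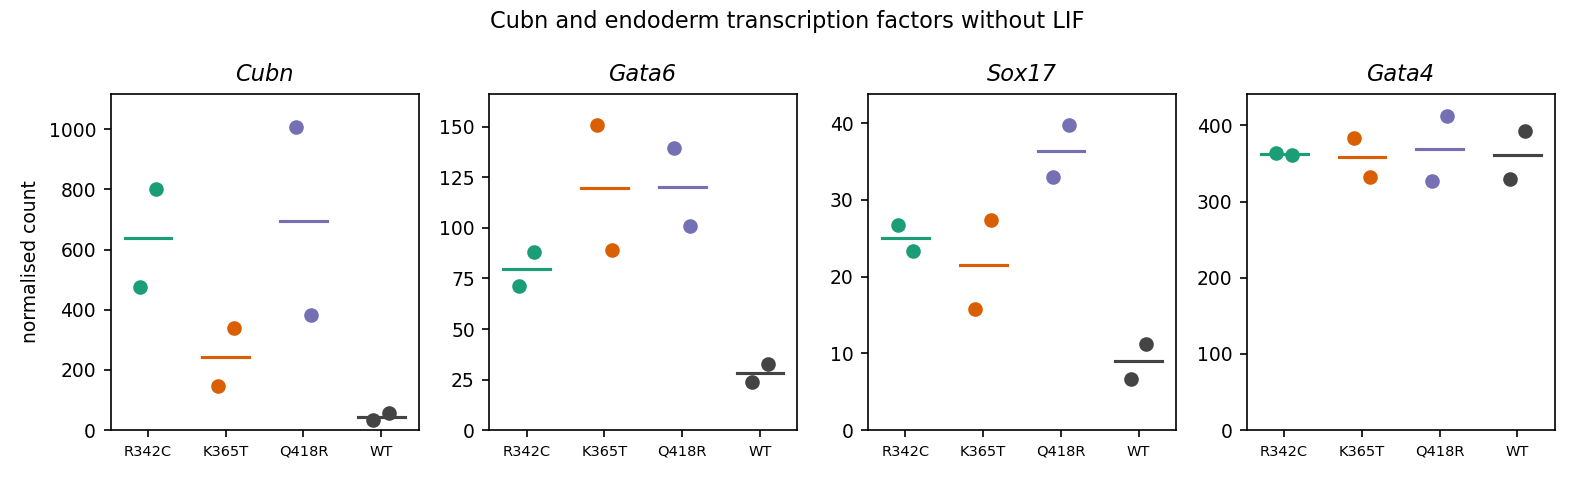
Normalised counts (linear axis from 0) of Cubn, Gata6, Sox17 and Gata4 in each library without LIF, with bars for the mean of 2 libraries. Cubn, Gata6 and Sox17 were each higher in all 6 mutant libraries than in both WT libraries, while Gata4 lay at 326 to 413 in the mutant libraries and at 330 and 393 in WT. Line by line and in either direction, 29.8% to 49.9% of all genes did not overlap with WT, and the share for all mutant libraries at once was not counted.

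The wider endocytic machinery showed how the members' rise without LIF compares with genes of like function. Over 5 lists with 80 tested genes, 40 passed in R342C, 41 in K365T, 37 in Q418R and 41 in WT, or 46.2% to 51.2%, close to the background of all genes. In WT, 5 of 14 genes of the LDL receptor family rose and 6 fell, beside 23.8% of all genes called higher and 24.9% called lower. Their median was -0.25, against -0.01 over all genes. The rising ones included Lrp3 at 2.35, Lrp8, a reelin receptor, at 2.16, and Lrp5, a Wnt co-receptor, at 1.83. Lrp2 rose in WT by 3.51, above each of these values. Of 23 adaptor and coat genes 2 rose and 6 fell in WT, with a median of -0.07. Dab1, the neuronal relative of Dab2, rose by 4.29, with 228 ± 92.7 normalised counts without LIF, against 8.63 ± 7.62 with LIF, while the light chain gene Cltb fell by 2.44 and the dynamin gene Dnm2 fell by 1.10.

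The lists that follow are likewise read beside 23.8% of all genes called higher and 24.9% called lower in WT. Of 20 endosomal sorting and recycling genes 3 rose and 9 fell in WT, with a median of -0.31. Clcn5, which encodes an endosomal chloride transporter needed for megalin-dependent uptake in the kidney, rose by 1.52 in WT, whereas Ocrl, a phosphoinositide phosphatase of the same route, fell by 1.30 and Tfrc, the transferrin receptor, fell by 1.41. Of 12 tested cobalamin genes 2 rose and 2 fell in WT, with a median of 0.12, among them Abcc1, a cobalamin exporter, at 0.98, Mmab at 0.51 and Mtr, methionine synthase, at -0.54. Of 11 tested genes for ligands 3 rose and 3 fell in WT, with a median of -0.52, led by Apom at -3.43, Clu at 2.86 and Lpl, lipoprotein lipase, at 1.29. In none of the endocytic lists did most tested genes pass as higher in WT, and neither did most of all genes.

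Against WT without LIF, 14 of the 80 endocytic genes passed in K365T, or 17.5%, beside 14.7% of all genes, and 3 passed in Q418R, or 3.75%, beside 6.15% of all genes. Without the second WT library these counts were 3 in K365T, or 3.75% beside 4.87% of all genes, and 1 in Q418R, or 1.25% beside 1.4%. In R342C 0 passed by limma, edgeR and DESeq2, beside 0.479% of all genes called by limma. An unadjusted p under 0.05 was seen there in 4 of the 80, beside 1006 of all 17757 genes. The receptor genes that passed in K365T were lower, as Lrp2 was: Vldlr at -1.42, Lrp5 at -1.04, Lrp4 at -0.92 and Lrp11 at -0.42. The coat and adaptor genes Cltb at -0.64, Ap2m1 at -0.60, Itsn1 at -0.43 and Ap2a2 at -0.33 were lower too, while Rab5c at 0.59 and Ocrl at 0.50 were higher. Abcc1 at -0.66, Apom at -1.08 and Folr1, a folate receptor, at -0.85 were lower, and Rbp4, the retinol carrier taken up by megalin, was higher at 0.73. Lrp5 at -0.87 and Abcd4 at -0.76 were lower and Ocrl at 0.79 was higher in Q418R. Those outside the largest WT responses are named because they passed. For the difference in response from WT, 0 of the 80 genes passed by limma and edgeR in any mutant line, with 1, 8 and 7 at an unadjusted p under 0.05 and 0, 4 and 1 by DESeq2 in R342C, K365T and Q418R. Limma called 0%, 0.659% and 0.141% of all 17757 genes in the same order. An unadjusted p under 0.05 was seen in 288, 2082 and 1493 of them, and DESeq2 called 2, 442 and 162.

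Markers of other cell types also moved with the medium, in WT beside 23.8% of all genes called higher and 24.9% called lower. Of 11 parietal endoderm genes 4 rose and 5 fell in WT without LIF (median -0.43), with Lamb1 at 4.68, Pth1r at 4.01 and Lama1 at -4.66. Of 10 trophectoderm genes 4 rose and 5 fell (median -0.76), with Fgfr2 at 4.23, Tead4 at -3.30 and Tfap2a at -2.62. Of 6 fibroblast genes 5 rose (median 4.12), among them Tagln at 4.88 and Acta2 at 4.48, and Dcn was counted in 185 reads without LIF and 0 with LIF in WT. Dcn had 31.6 and 171 normalised counts in the WT libraries without LIF, the higher value in the second, which stood apart in structural RNAs. The summed level of the 10 listed fibroblast genes was 1453 to 2970 in the mutant libraries without LIF and 2036 to 2286 in WT, so it did not separate the lines as Cubn did. The 17 tested endoderm genes held 4 higher and 6 lower in WT (median -0.47), led by Cldn6 at 2.72 and Hnf4a at -2.65. Of 7 general pluripotency genes 1 rose, Utf1 at 4.0, and 4 fell, with Tdgf1 at -2.82 and Gdf3 at -2.19 (median -0.66). Of 12 retinoic acid response genes 4 rose and 5 fell (median -0.03), with Cdx1 at -7.96, Aldh1a2 at -4.25 and Crabp2 at 3.58.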

How the data were processed

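Total RNA was depleted of ribosomal RNA, made into stranded libraries and sequenced as paired reads, per the labels' protocols. Trim Galore, STAR, DESeq2 and the build mm10 appear in the submitters' processing notes as names without a role or version, and the counting tool, its strand setting and the annotation are not given in the sources used here. The first deposited table is in normalised counts (the authors' signal per gene, read counts divided by a factor for the library), and the other deposited table is in TPM, computed by the authors with gene lengths not stated. Values in each library were whole multiples of 1 step of 0.779 to 1.19, the worth of 1 read, and 100% of values up to 200 reads were whole within 0.05, so reads were recovered.

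Log2(normalised count + 4) was fitted with limma 3.58.1 (R 4.3.3; eBayes with a trend), with 1 mean for each of 8 groups and 8 residual degrees of freedom. The 17757 genes with a mean of at least 10 were tested, with Benjamini-Hochberg adjustment over all of them and a threshold of 0.05. The pseudocount of 4 compresses differences of low genes. DESeq2 1.42.0 and edgeR 4.0.16 (quasi-likelihood) on the recovered reads, TPM plus 0.1, other pseudocounts (1 and 16) and filters, upper-quartile scaling, a replicate block and leaving out each library were tried. The scripts were tested on simulated data.

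The members and the 13 gene lists were chosen with earlier results of these data known. Lists are described by counts and medians only. Named are the members, in each list up to 3 tested genes with the largest WT response, neighbours within 200 kb, the 5 genes most like Cubn, and endoderm markers, plus those stated to be named because they passed. Gene positions came from GENCODE M21, promoters from RefSeq (GRCm38.p6), where 4 of 4 members matched. Same-numbered replicates deviated together in some pairs of groups and not in others (median correlation 0.080), and they were not paired. Results for 1 gene that fell under this rule are not reported here.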

Additional observations from a re-analysis of the deposited data

How the results depend on the processing

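Over 26 other settings, 8 or 9 of 12 differences between media passed for Amn, Lrp2 and Dab2 (8 to 9 when 1 library was left out), and 0 of 9 against WT with LIF in each. Against WT without LIF, 0 passed with TPM values and 0 with only the libraries compared (fewer residual degrees of freedom), where 1 passed otherwise, also without any 1 library (1 to 1). With only the libraries compared, 0 of all tested genes passed against WT without LIF in each mutant line. That count therefore says nothing about the members in particular. Among the mutant lines the count was 0 with TPM, 0 with only the libraries compared, 2 with DESeq2 and 1 to 2 with 1 library left out, Cubn being the second without the second K365T (adjusted p = 0.05) or the second Q418R library lacking LIF (limma adjusted p = 0.0432). For the difference in response DESeq2 gave 1, and leaving out libraries 0 to 0. The cause of these moves was not tested. Of 142 alternative values for calls, 138 stayed calls and 4 did not.

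Differences near 0, none of them called, changed sign. With TPM these were Amn between media in Q418R (0.14), Lrp2 against WT in R342C without LIF (0.14) and in K365T with LIF (0.079), and Dab2 against WT in K365T without LIF (0.063) and with LIF (0.11). Amn between media in Q418R was 0.074 with upper-quartile scaling, 0.011 with edgeR and 0.023 with DESeq2, and Dab2 against WT in K365T with LIF was 0.013, 0.12 and 0.094 in the same order. With 1 library left out, Dab2 ranged over -0.16 to 0.51 in R342C, -0.54 to 0.32 in K365T and -0.077 to 0.59 in Q418R against WT without LIF, and -0.61 to 0.57 in K365T with LIF; its difference in response over -0.68 to 0.50 in K365T and -0.66 to 0.012 in R342C. Amn ranged over -0.77 to 0.076 in K365T and -0.27 to 0.37 in Q418R against WT without LIF, and over -0.32 to 0.31 between media in Q418R. Lrp2 ranged over -0.13 to 0.088 in R342C and -0.055 to 0.16 in Q418R without LIF, and -0.25 to 0.14 in K365T with LIF.

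The log2 difference of Cubn between media in WT was 3.40 with a pseudocount of 1 and 1.64 with 16, so its size on that scale depends on the pseudocount. The 28 pairs of groups gave correlations of same-numbered deviations of -0.387 to 0.448 (median 0.080, 13 over 0.1). With the replicate block 8 of 12 differences between media passed, as without it. TPM moved the median of all genes against WT without LIF by 0.17 in R342C, 0.15 in K365T and 0.19 in Q418R. Depth limits Cubn with LIF (1 to 6 reads per library) and Amn (8 to 63).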
